A study of Mus with 17 samples.

Results

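The conjugating enzymes of the liver attach a polar group to drugs, hormones, bilirubin and bile acids. They belong in the main to 3 families: the UDP-glucuronosyltransferases (UGT), the cytosolic sulfotransferases (SULT) and the soluble glutathione S-transferases (GST). Their genes were taken by symbol: those that begin with Ugt1, Ugt2 or Ugt3, with Sult1 to Sult5, or with Gst followed by a class letter (a, m, p, t, k, o or z) and a digit. This gave 61 of the 24937 genes with a value, namely 20 UGT, 19 SULT and 22 GST genes. They were measured by RNA sequencing of whole liver from 17 male mice of the strain C57BL6/JBomTac, with 1 library per mouse. A western diet had been fed to 8 of them, with fructose at 42 g/L in their water, over 52 weeks. This is a regimen used to bring on advanced steatohepatitis, which is fatty liver with inflammation. The other 9, of matching age, had eaten standard chow and drunk pure water, and all mice went without food overnight before they were killed. The question of the comparison is which of these enzymes differed in transcript level between the livers of the 2 diets.

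Conjugation is the second phase of drug metabolism. UGT enzymes sit in the endoplasmic reticulum and transfer glucuronic acid from UDP-glucuronic acid, SULT enzymes transfer sulfate from the donor PAPS, and GST enzymes join glutathione to reactive electrophiles such as lipid aldehydes and drug epoxides. The conjugates dissolve in water and leave the hepatocyte through transporters into bile or blood. Expression in liver is set by nuclear receptors (CAR, PXR, PPARα), by the oxidant sensor NRF2, and in the mouse also by sex through the rhythm of growth hormone. The Ugt1a genes form a single locus: each has a first exon of its own, and all share the remaining exons.

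The libraries held 3604212 to 9071908.5 counts, and the upper limit that a count of 0 sets, taken as 3 counts, ran from 0.314 CPM in western library 7 to 0.850 CPM in western library 1. CPM is the usual count scaled by library size, here with TMM factors as in that limit, which covers counting error only. The libraries are numbered in label order within a diet. Western library 1 was the shallowest. Western library 5 and chow library 2 carried pancreatic transcripts, with a summed level of 24 acinar genes of 203 to 6968 CPM over the western and 194 to 23298 CPM over the chow libraries, those 2 being the highest. Hepatocyte markers were abundant in all libraries, as the tissue label requires: the 14 hepatocyte genes with a value summed to 16128 to 27258 CPM on western diet, where library 1 was highest, and 19893 to 26819 CPM on chow. Of those 14, Alb and Serpina1a fell and 12 did not pass, whereas 9 of 11 bile duct, 12 of 13 macrophage, 10 of 12 stellate cell, all 7 tested T and natural killer cell and all 3 tested neutrophil markers rose. Of 11 endothelial markers 3 rose and 2 fell, of 7 B cell markers 2 rose, and of 18 tested acinar genes none passed. In bulk liver, fewer cells of a type and less RNA per cell cannot be told apart.

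More conjugating enzymes fell than rose on the western diet, though among the larger changes more rose, as over all genes. Tested against a 1.5-fold change, 6 members rose and 4 fell, beside 1108 rises and 195 falls over all 13204 genes tested. No UGT rose and 10 of 18 tested fell; 3 SULT rose and 2 fell of 8 tested; 5 GST rose and 5 fell of 20 tested. The largest rises were those of the estrogen sulfotransferase Sult1e1 (11.1-fold), of Gsta1 (8.35-fold) and of Gstm3 (6.16-fold), and the largest fall was that of Ugt2b38 (4.36-fold). The fold of Sult1e1 rests on few chow counts, fewer than 10 in 8 of 9 chow libraries, and the gene passed the low count filter through its western libraries. Of the 61 members, 46 had enough counts to be tested and 15 did not, none of which passed 5 counts in any library. Of the 46, 8 rose and 17 fell. The call is an adjusted p below 0.05 in edgeR's quasi-likelihood test, with Benjamini-Hochberg adjustment over all genes, and "edgeR" beside a p-value means this test. Of all 13204 genes tested, 24.8% rose and 23.6% fell, and 48.4% passed in either direction, against 25 of 46 (54.3%) here. The median log2 difference, western diet minus chow, was −0.20 over the 46 members and −0.0091 over all genes tested, and 32 of the 46 lay below 0. Among the 46 are 8 Ugt1a rows that share most of their counts, as described further on. Outside Ugt1a the median was −0.14, and 23 of 38 tested members passed (60.5%). No UGT and no Gstm gene changed sign in any of the other settings tried.

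**Figure D1:**
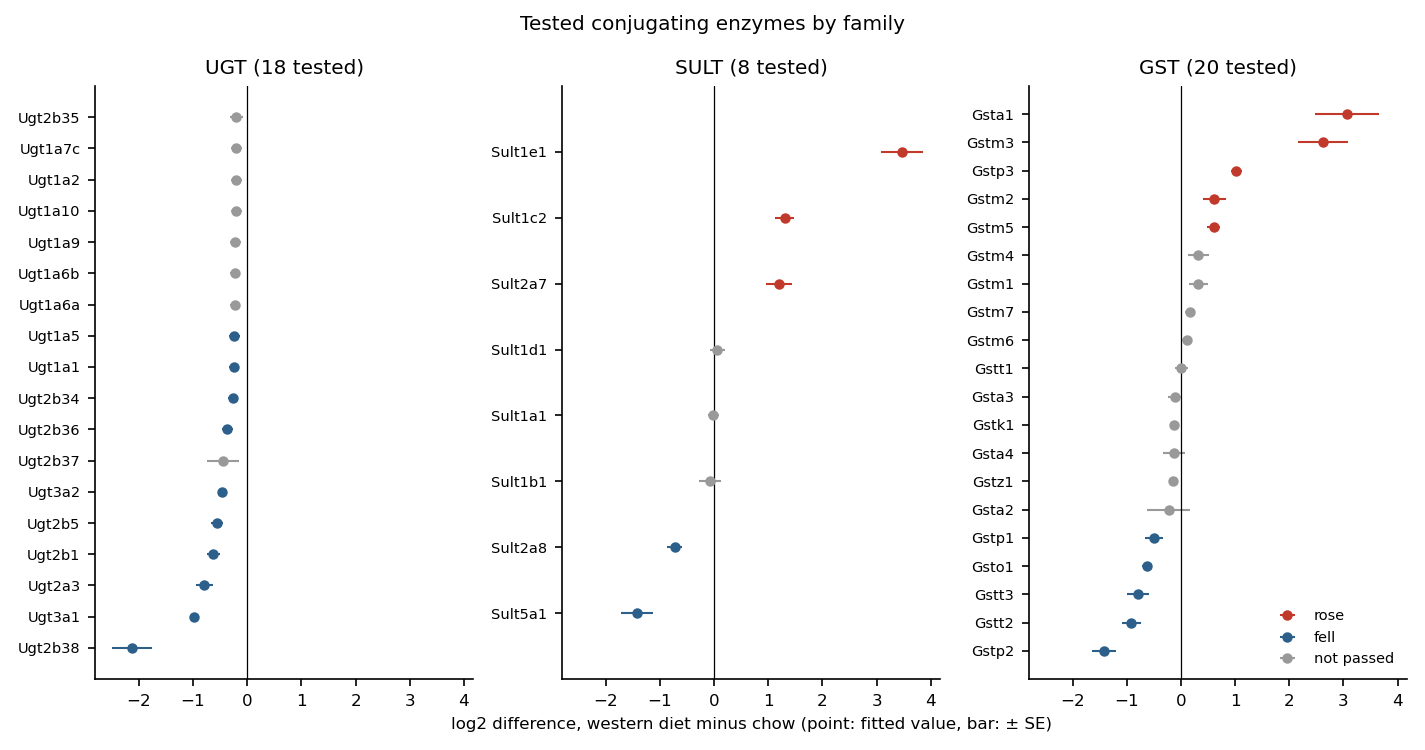
The fitted log2 difference of each of the 46 tested members, western diet minus chow, on the horizontal axis, with bars of ± 1 SE, in a panel for each family (8 western and 9 chow libraries). All 18 UGT genes lie left of 0, all 7 Gstm genes lie right of 0, and Sult1e1, Gsta1 and Gstm3 lie farthest right.

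At least 2-fold, 6 members rose and 3 fell (8.96% and 1.14% of all genes tested). The libraries of the 2 diets did not overlap in 7 members. Sult1e1 and Gstp3 were higher in every western library than in any chow library, a pattern held by 7.01% of all genes tested. Ugt3a1, Ugt3a2, Gsto1, Gstp2 and Gstt2 were lower in every western library, as were 5.03% of all genes tested. Summed over a family, the UGT genes came to 8089 ± 1231 CPM on western diet against 10080.3 ± 1049 on chow (mean ± SD, n = 8 and 9), the SULT genes to 999.8 ± 187 against 1278 ± 151, and the GST genes to 3028 ± 663 against 3048 ± 349. The UGT and SULT means were lower on western diet and the GST means differed by less than their SD. The lower SULT sum was due to Sult2a8 alone, with a mean of 460 CPM on western diet against 760 CPM on chow. The Sult1 genes summed to 527 CPM on western diet against 506 CPM on chow. The ranges of the diets overlapped in all 3 families. These sums carry the shared Ugt1a counts described further on, and CPM was not divided by transcript length, so levels are not compared between genes.

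Both genes of the Ugt3a pair fell, with no overlap between the diets. The UGT3 enzymes differ from the rest of the family in using other sugars in place of glucuronic acid, such as N-acetylglucosamine for UGT3A1. For Ugt3a1, the lowest, median and highest library read 135, 146 and 193 CPM on chow and 58.7, 78.8 and 89.1 CPM on western diet. Chow library 3 was the highest and western library 1 the lowest. The log2 difference was −0.97 ± 0.088 (SE; adjusted p = 4.67e-08, edgeR's quasi-likelihood test). Ugt3a2 read 465.6, 525.8 and 593 CPM on chow and 345, 385 and 404 CPM on western diet. Its log2 difference was −0.46 ± 0.059 (adjusted p = 3.59e-06, edgeR).

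In the Ugt2 cluster of chromosome 5, 6 of 8 tested genes fell, beside 23.6% of all genes tested. Enzymes of the UGT2B class glucuronidate steroids, bile acids and many drugs. Ugt2b38 was the member that fell most, from 7.78, 13.1 and 24.7 CPM (lowest, median and highest chow library) to 0.806, 2.10 and 9.37 CPM on western diet. The groups overlapped through western library 7 alone, which lay at 9.37 CPM while the next highest western library lay at 3.82 CPM. Its log2 difference was −2.12 ± 0.37 (adjusted p = 1.29e-04, edgeR), and 3 western libraries held under 10 counts. Without western library 7 it was −2.74.

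Ugt2a3, which is active on bile acids, ran from 261, 424 and 485 CPM on chow to 163, 215 and 395 CPM on western diet (lowest, median and highest library). Western library 3 was the exception, at 395 CPM within the chow range; the other 7 western libraries lay below every chow library. The log2 difference was −0.79 ± 0.15 (adjusted p = 3.36e-04, edgeR). The same library was the highest western library for Ugt2b1, which read 462, 651 and 723 CPM on chow and 286, 403 and 589.8 CPM on western diet. The log2 difference of Ugt2b1 was −0.62 ± 0.12 (adjusted p = 3.65e-04, edgeR), with 7 of 8 western libraries below the chow range.

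Ugt2b5 fell by a log2 difference of −0.55 ± 0.11 (adjusted p = 4.73e-04, edgeR); it lay between 573 and 868 CPM on chow and between 371 and 649 CPM on western diet. Ugt2b36 fell less, with a log2 difference of −0.36 ± 0.10 (adjusted p = 0.00370, edgeR); 7 of 8 western libraries lay below the chow range, and western library 1, at 709 CPM, lay within it. Ugt2b34 passed narrowly, at a log2 difference of −0.26 ± 0.10 (adjusted p = 0.0333, edgeR), and lost its call in 10 of 17 fits with a single library removed, where the adjusted p was 0.0510 to 0.0713. It also lost its call with a covariate drawn from clock genes (adjusted p = 0.0643, edgeR). Ugt2b35 (−0.20 ± 0.12, adjusted p = 0.174, edgeR) and Ugt2b37 (−0.45 ± 0.30, adjusted p = 0.226, edgeR) did not pass. Ugt2a1 and Ugt2a2, genes of the olfactory epithelium in the main, had at most 2.5 counts in any library, too few to test, and held the same value in 16 of 17 libraries.

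The Ugt1a locus on chromosome 1 holds 8 members, among them Ugt1a1, the bilirubin glucuronosyltransferase. Ugt1a1 read 789.7, 985 and 1094 CPM on chow and 692, 778 and 1121 CPM on western diet (lowest, median and highest library) and fell, with a log2 difference of −0.25 ± 0.09 (adjusted p = 0.0269, edgeR). Ugt1a5 also passed, at −0.24 ± 0.10 (adjusted p = 0.0491, edgeR). The other 6 (Ugt1a2, Ugt1a6a, Ugt1a6b, Ugt1a7c, Ugt1a9 and Ugt1a10) had log2 differences of −0.22 to −0.20 and adjusted p of 0.0525 to 0.0994 (edgeR). In all 8 rows western library 1 was the highest western library and the only one above the chow range: in Ugt1a1 it lay at 1121 CPM, and the next western library lay at 832 CPM.

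The number of UGT genes that passed depended on western library 1, whereas Ugt1a1 and Ugt1a5 kept their calls without it. Without western library 1, 17 of 18 tested UGT genes fell in place of 10, the added ones being the 6 other Ugt1a rows and Ugt2b35. Leaving out other single libraries gave 7 to 13 falls. Ugt1a1 lost its call without western library 5, western library 7 or chow library 3 (adjusted p of 0.0520 to 0.0593, edgeR), and Ugt1a5 lost it in 15 of 17 such fits (adjusted p of 0.0548 to 0.102). Western library 1 was also the shallowest library and had the highest hepatocyte marker sum of its diet; their part in the result was not tested.

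The 8 Ugt1a rows are not 8 independent measurements. In the RefSeq annotation of GRCm38.p6 the locus spans 88055411 to 88220002 on chromosome 1, and 7 of the 8 genes end at the same base, 88220002. The lowest of the 8 counts in a library, which was that of Ugt1a2 in 16 of 17 libraries, was taken as the part that all rows have in common. This common part, multiplied over the 8 rows, made up 90.4% to 93.4% of their sum in western and 89.8% to 92.2% in chow libraries. What a row held above it was taken as the excess of that gene, which covers its own first exon if the common part comes from the shared exons. This split was chosen after seeing the data.

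Ugt1a1 kept a large excess, of 268, 313 and 340.5 CPM on chow and 191, 245 and 295 CPM on western diet (lowest, median and highest library). Western library 1 lay above chow libraries 7 and 1, and the other 7 western libraries lay below every chow library. The excess fell, with a log2 difference of −0.36 ± 0.075 (adjusted p = 5.45e-04, edgeR), beside −0.25 for the whole row. The excesses of Ugt1a6a and Ugt1a6b, enzymes for flat phenols, fell as well, by log2 differences of −0.50 ± 0.088 (adjusted p = 1.17e-04) and −0.39 ± 0.12 (adjusted p = 0.00924, edgeR), though their whole rows did not pass. That of Ugt1a5 fell, at −1.05 ± 0.37 (adjusted p = 0.0288, edgeR), and those of Ugt1a9 and Ugt1a10 did not pass (adjusted p = 0.320 and 0.0893). With all libraries included, the common part itself did not pass, at −0.20 ± 0.10 (adjusted p = 0.0978, edgeR), and did without western library 1, at −0.30 (adjusted p = 0.00267). Ugt1a2 and Ugt1a7c, with an excess of 0 to 2.5 and 0 to 24 counts, could not be told from the common part. Counted this way, 12 rows of the UGT family fell in place of 10.

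**Figure D2:**
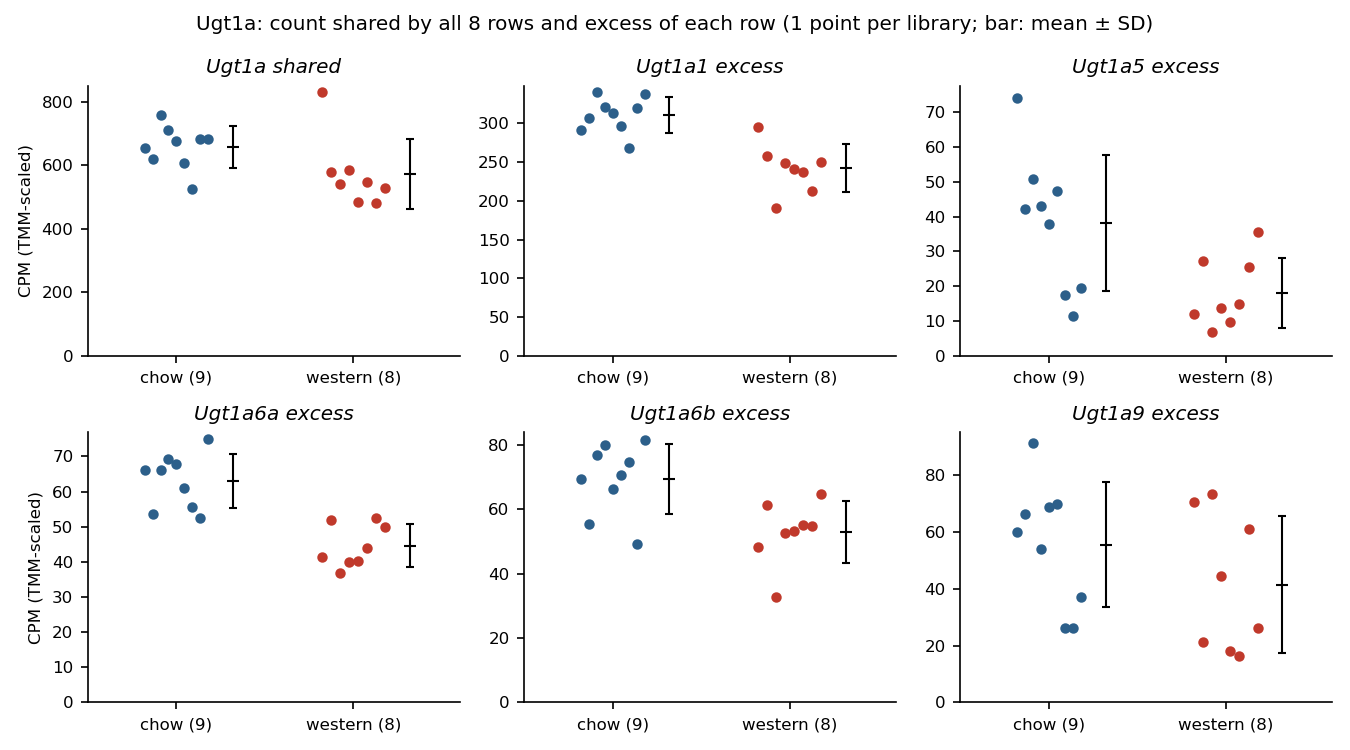
TMM-scaled CPM of the count that all 8 Ugt1a rows have in common and of the excess of 5 rows over it, 1 point per library, with mean ± SD beside the 9 chow (blue) and 8 western (red) libraries. In the common part western library 1 stands at 831 CPM above all others, whereas the Ugt1a6a excess meets only at 52.6 CPM in a western and 52.5 CPM in a chow library.

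Among the sulfotransferases, Sult1e1 rose most of all members. SULT1E1 sulfates and so inactivates estrogens, and is known for low levels in the liver of healthy male mice. On chow, the lowest, median and highest library read 0.179, 0.675 and 2.58 CPM, and on western diet 3.53, 9.98 and 17.4 CPM. Every western library lay above every chow library. Chow library 7 was the highest of its diet, and the other 8 chow libraries held fewer than 10 counts, so that the gene entered the test through its western libraries. The log2 difference was 3.47 ± 0.39 (adjusted p = 8.34e-07, edgeR), and the size of the fold rests on those few chow counts: without chow library 7 it was 4.03.

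Sult1c2, a phenol sulfotransferase, rose with a log2 difference of 1.30 ± 0.18 (adjusted p = 8.26e-06, edgeR). It read 3.14, 4.78 and 7.81 CPM on chow and 7.02, 12.6 and 18.4 CPM on western diet, and 7 of 8 western libraries lay above the chow range. Sult2a7 rose with a log2 difference of 1.20 ± 0.25 (adjusted p = 5.38e-04, edgeR), and lay between 1.87 and 5.86 CPM on chow and between 4.15 and 13.7 CPM on western diet, with 6 of 8 western libraries above the chow range. None of these 3 genes reached 20 CPM in any library.

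Sult2a8, known as a bile acid sulfotransferase of mouse liver, moved the other way. Chow libraries read 543, 809 and 942 CPM and western libraries 254, 437 and 582 CPM (lowest, median and highest). Western library 4 was the lowest, and 6 of 8 western libraries lay below the chow range. It fell by a log2 difference of −0.73 ± 0.14 (adjusted p = 3.30e-04, edgeR), while its neighbour Sult2a7 rose. The 2 genes lie in a cluster of related Sult2a genes, whose sequences were not compared here. How reads with several matches were counted is not given in the sources used here.

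Sult5a1, a gene with no settled substrate, fell from 4.41, 8.06 and 13.4 CPM on chow to 1.04, 3.06 and 5.56 CPM on western diet (lowest, median and highest), with a log2 difference of −1.42 ± 0.29 (adjusted p = 5.54e-04, edgeR). Western library 2 alone lay inside the chow range, and 3 western libraries held under 10 counts. The 3 other tested genes did not pass: Sult1a1, the main phenol sulfotransferase (−0.012 ± 0.11, adjusted p = 0.941), Sult1b1, which acts on thyroid hormone (−0.077 ± 0.20, adjusted p = 0.781), and Sult1d1, which acts on catecholamines (0.058 ± 0.14, adjusted p = 0.753, all edgeR). The sign of Sult1a1 and Sult1b1 turned with library size alone as the scaling. The other 11 (Sult1c1, Sult2a1 to Sult2a6, Sult2b1, Sult3a1, Sult3a2 and Sult4a1) reached at most 5 counts and were not tested.

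**Figure D3:**
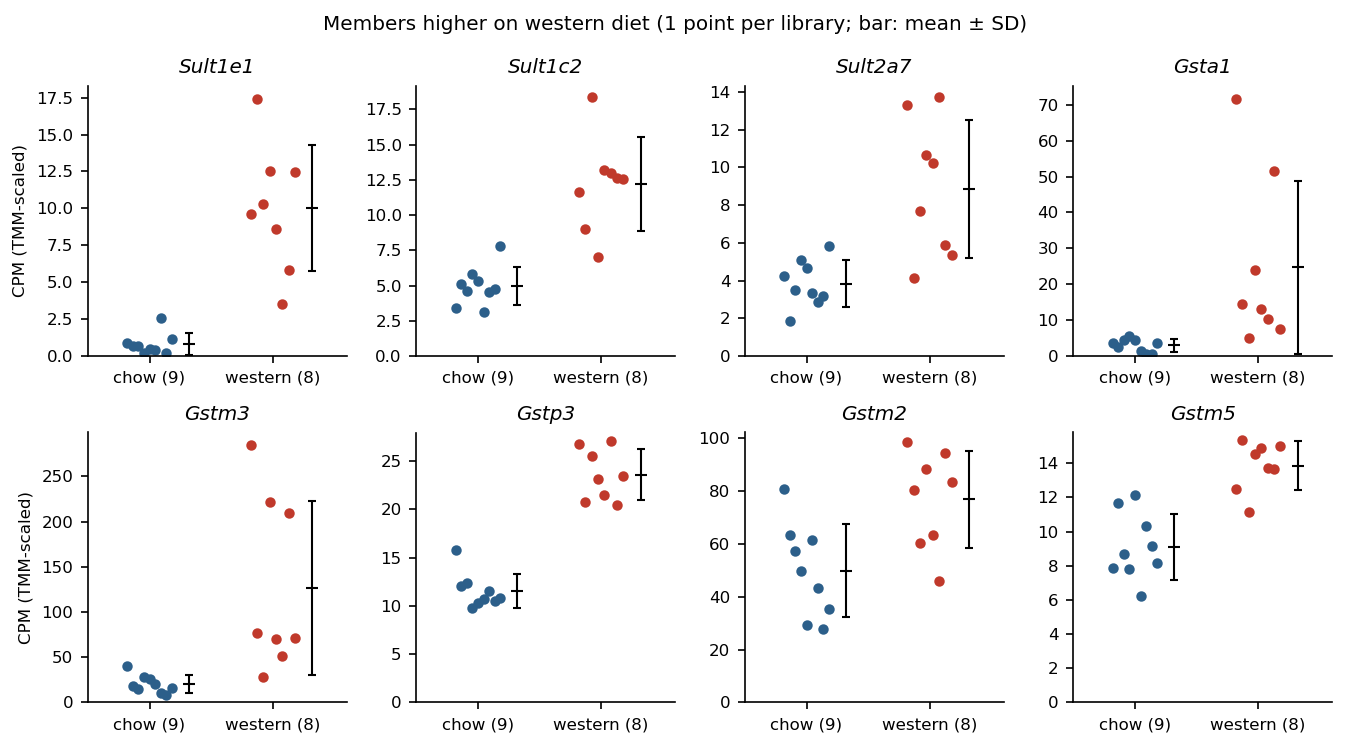
TMM-scaled CPM of the 8 members that rose, 1 point per library, with mean ± SD beside the 9 chow (blue) and 8 western (red) libraries. Sult1e1 and Gstp3 do not overlap between the diets, while Gsta1 and Gstm3 spread widely within the western diet, from 4.93 to 71.7 CPM and from 28.0 to 285 CPM.

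The GST classes did not share a direction. In the alpha class, whose members reduce lipid peroxides and conjugate aldehydes, Gsta1 alone passed. It read 0.407, 3.50 and 5.47 CPM on chow and 4.93, 13.8 and 71.7 CPM on western diet (lowest, median and highest library). The western libraries 1, 7 and 4 held 71.7, 51.4 and 23.9 CPM, western library 3 overlapped with chow at 4.93 CPM, and 3 chow libraries held under 10 counts. Gsta1 rose with a log2 difference of 3.06 ± 0.59 (adjusted p = 4.27e-04, edgeR). Its close copy Gsta2 did not pass (−0.23 ± 0.40, adjusted p = 0.661, edgeR) and ranged from 6.41 to 54.1 CPM within chow alone. Gsta3, which detoxifies aflatoxin epoxide in the mouse (−0.12 ± 0.12, adjusted p = 0.423), and Gsta4, which clears 4-hydroxynonenal (−0.13 ± 0.20, adjusted p = 0.614, both edgeR), did not pass either.

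All 7 genes of the mu class had a log2 difference above 0, and 3 of them rose, beside 24.8% of all genes tested. The 7 lie in a single cluster on chromosome 3, and how reads that match several of them were counted is not given in the sources used here. Gstm3 stood out, with 8.45, 18.5 and 40.4 CPM on chow and 28.0, 74.1 and 285 CPM on western diet (lowest, median and highest), and 7 of 8 western libraries above the chow range. Western libraries 1, 4 and 7 held 285, 221 and 209 CPM, and the next western library 76.8 CPM. The log2 difference was 2.62 ± 0.46 (adjusted p = 2.26e-04, edgeR). Gstm5 rose from 6.21, 8.68 and 12.1 CPM to 11.2, 14.1 and 15.3 CPM, again with 7 of 8 western libraries above the chow range (0.60 ± 0.12, adjusted p = 3.49e-04, edgeR). Gstm2 rose from 27.9, 49.7 and 80.7 CPM to 46.1, 81.8 and 98.6 CPM, with 4 of 8 western libraries above the chow range (0.62 ± 0.20, adjusted p = 0.0186, edgeR).

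Gstm1, the main hepatic enzyme of the class, did not pass (0.32 ± 0.18, adjusted p = 0.140, edgeR), although western library 1 reached 1230.2 CPM against 369 to 610.2 CPM over the chow libraries. Gstm4, Gstm6 and Gstm7 did not pass either, with log2 differences of 0.32, 0.11 and 0.16. With library size alone as the scaling, under which the median of all genes moved from −0.0091 to 0.12, Gstm1, Gstm6 and Gstm7 passed as well, for 8 rises in the GST family in place of 5.

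The 3 genes of the pi class split. Gstp1, the main pi enzyme of liver and known to be higher in male mice, read 209.9, 299.9 and 346 CPM on chow and 139.5, 184 and 335 CPM on western diet (lowest, median and highest) and fell (−0.50 ± 0.16, adjusted p = 0.0140, edgeR). The groups overlapped, with 5 of 8 western libraries below the chow range and western library 1 the highest of its diet. Gstp2 fell without overlap, from 7.78, 12.5 and 21.6 CPM to 3.40, 4.83 and 7.60 CPM (−1.42 ± 0.22, adjusted p = 2.96e-05, edgeR). Gstp3 rose without overlap, from 9.78, 10.8 and 15.8 CPM to 20.5, 23.3 and 27.1 CPM (1.02 ± 0.10, adjusted p = 7.29e-08, edgeR). The 3 genes lie within 24.2 kb on chromosome 19 (4035411 to 4059605) and are close in sequence, so reads may be divided among them in a way that is not given in the sources used here.

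In the theta class, whose enzymes act on small halogenated compounds, Gstt2 and Gstt3 fell and Gstt1 did not pass. Gstt2 read 77.7, 101 and 141 CPM on chow and 27.9, 56.6 and 76.7 CPM on western diet, with no overlap (−0.92 ± 0.17, adjusted p = 2.72e-04, edgeR). Gstt3 read 50.2, 90.7 and 112 CPM and 19.2, 51.1 and 75.5 CPM (−0.79 ± 0.20, adjusted p = 0.00365, edgeR), and 4 of 8 western libraries lay below the chow range. Western library 4 was the lowest for both. Gstt1 stood at 0.007 ± 0.12 (adjusted p = 0.968, edgeR), a value whose sign changed in 4 of the 12 other settings and in 7 of the 17 fits without 1 library.

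Gsto1 reduces dehydroascorbate and belongs to the omega class. It read 119.5, 135 and 156 CPM on chow and 70.8, 84.6 and 106 CPM on western diet, with every western library below every chow library. Gsto1 fell with a log2 difference of −0.63 ± 0.079 (adjusted p = 2.28e-06, edgeR). Gstk1, found in mitochondria and peroxisomes (−0.13 ± 0.079, adjusted p = 0.179), and Gstz1, the maleylacetoacetate isomerase of tyrosine breakdown (−0.15 ± 0.082, adjusted p = 0.145, both edgeR), did not pass. Gsto2 and Gstt4 had at most 2 counts in any library and were not tested.

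**Figure D4:**
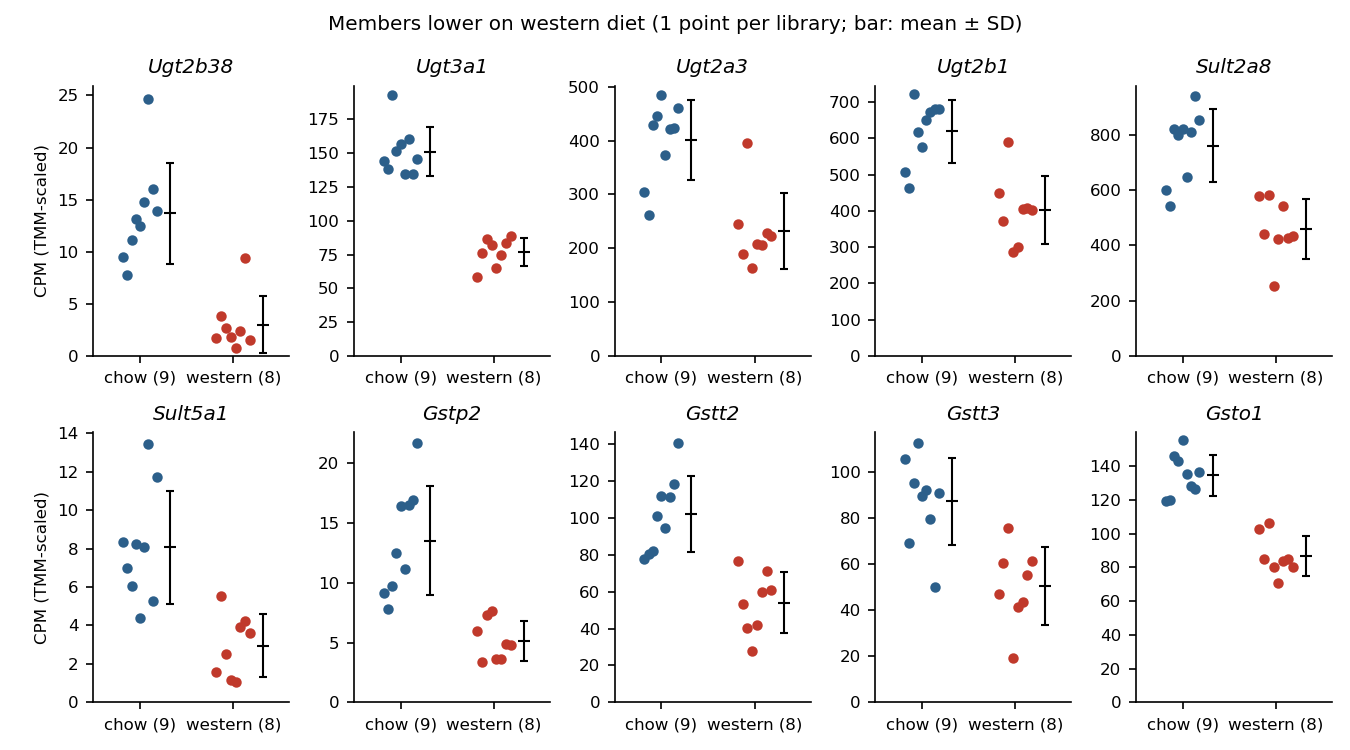
TMM-scaled CPM of 10 of the 17 members that fell, 1 point per library, with mean ± SD beside the 9 chow (blue) and 8 western (red) libraries. Ugt3a1, Gstp2, Gstt2 and Gsto1 do not overlap between the diets, and single western libraries reach into the chow range in Ugt2b38 (9.37 CPM), Ugt2a3 (395 CPM) and Sult5a1 (5.56 CPM).

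The wide spread of Gsta1 and Gstm3 within the western diet was shared with other genes. The 3 libraries compared here were picked from the values of Gsta1 and Gstm3, so both count among the 5 members below by choice. Western libraries 1, 4 and 7 held the 3 highest western values of 5 of the 46 tested members, Gsta1, Gstm2, Gstm3, Gstm4 and Ugt2b35, and not of the other 41. The same held for 11 of 23 tested NRF2 targets outside the GST family and not for the other 12, and for 129 of all 13204 genes tested (0.977%). Of those 11, 4 were chosen after their values were seen to be described further, namely the quinone reductase Nqo1, the carbonyl reductase Cbr3, the sulfiredoxin Srxn1 and the exporter Abcc4. Cbr3 read 78.9, 70.1 and 67.0 CPM in those libraries and at most 14.2 CPM in the other 5. Western library 3 was the lowest western library in Gsta1, Gstm3, Gstm4 and Ugt2b35, whereas western library 6 was lowest in Gstm2. It was also lowest in Gstm1, which is not among those 5 members, and in Nqo1, Cbr3, Srxn1 and Abcc4. The lowest library of the rest of the 11 NRF2 targets is not given here. Cyp2a4, a steroid hydroxylase higher in female liver, was highest in western libraries 1, 4 and 7, at 161, 81.4 and 104 CPM. It was named because it moved with these genes, and other female-biased genes are not given by library here. Both Gsta1 and Gstm3 kept their calls without any single library; their log2 differences were lowest without western library 1, at 2.64 and 2.35. The shared order is a description of 8 libraries, given without a test.

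**Figure D5:**
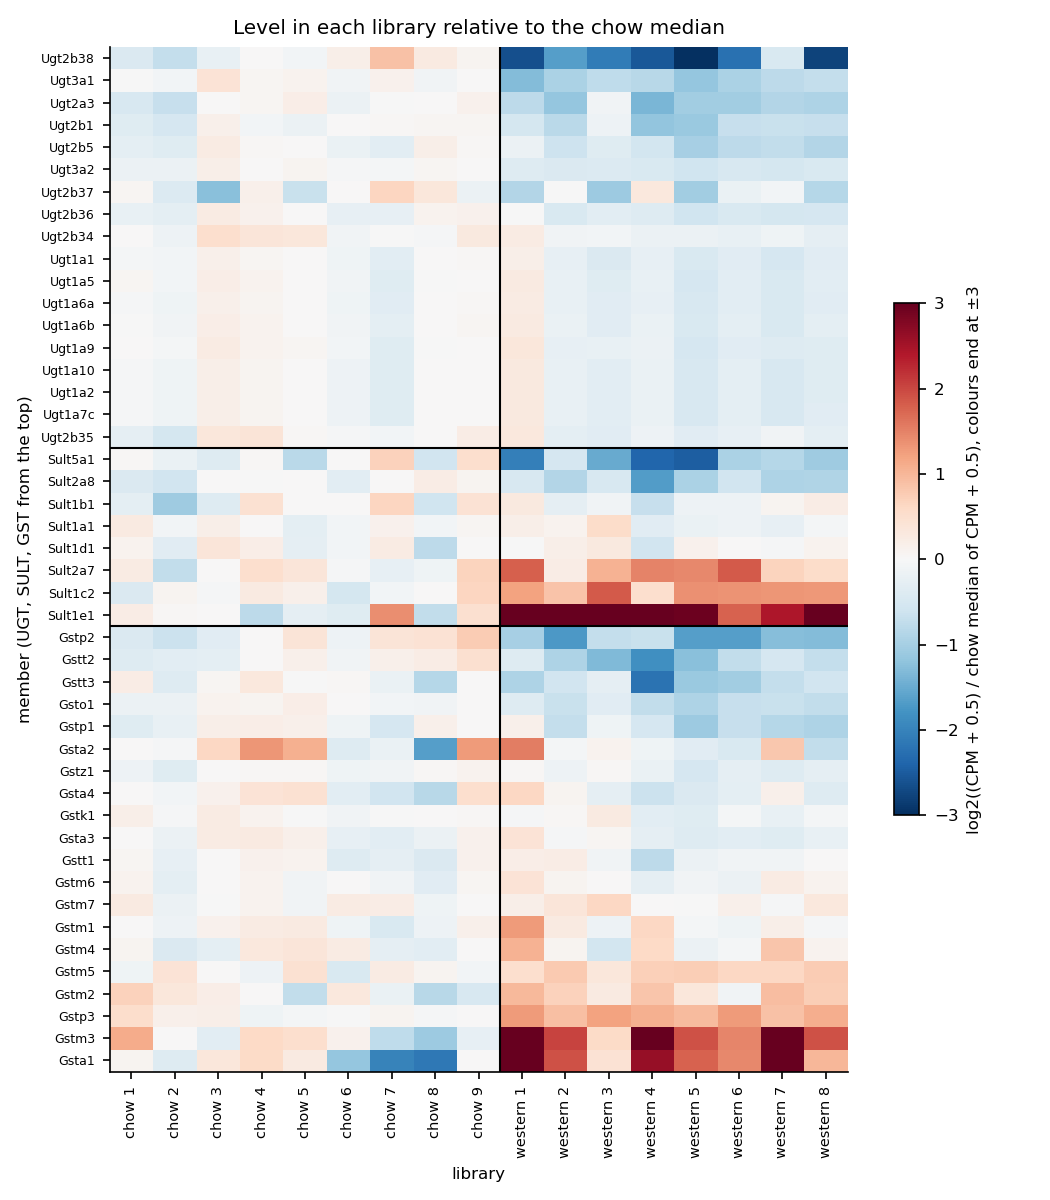
Level of each of the 46 tested members (rows) in each library (columns), as log2 of CPM plus 0.5 relative to the same for the chow median, with red for higher and blue for lower and colours ending at ±3. The Ugt1a rows show 1 pattern, with western library 1 pale red and the other western libraries pale blue, and Gsta1 and Gstm3 are darkest in western libraries 1, 4 and 7.

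Members that sit together in the genome did not always move together. Of all genes tested, 24.8% rose and 23.6% fell, so the calls in clusters of 2 or 3 tested genes say little about neighbours. On chromosome 5 the Ugt2 genes span 86889770 to 87490871, with 6 falls among 8 tested and no rise. Directly beside them Sult1b1, Sult1d1 and Sult1e1 span 87513327 to 87591611, where Sult1e1 rose and the other two did not pass. The Sult2a cluster on chromosome 7 (13623967 to 14493023) held 1 rise and 1 fall among 2 tested, and the Gstp cluster 1 rise and 2 falls. The Gstm cluster on chromosome 3 (107895854 to 108045179) held 3 rises and no fall among 7, the trio of Gsta1, Gsta2 and Gsta4 on chromosome 9 (78191966 to 78347192) 1 rise among 3, the Gstt cluster on chromosome 10 (75774117 to 75837419) 2 falls among 3, and the Ugt3a pair on chromosome 15 (9279822 to 9370955) 2 falls. Coordinates are from the RefSeq table of GRCm38.p6, which is mm10.

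The supply of the 3 donor molecules showed no shared direction, as over all genes tested, of which 24.8% rose and 23.6% fell. In the 3 lists that follow, 4 of 8, 7 of 14 and 9 of 17 tested genes passed, beside 48.4% of all genes tested. The mixed calls therefore say little about donor supply in particular. Of 8 tested genes for UDP-glucuronic acid supply and glucuronide removal, 2 rose and 2 fell: Ugp2, which makes UDP-glucose (0.38 ± 0.12), and the β-glucuronidase Gusb (0.51 ± 0.076) rose, whereas Ugdh, which oxidises UDP-glucose to UDP-glucuronic acid, fell (−0.41 ± 0.14; log2 difference ± SE here and in the following). Of 14 genes for PAPS and sulfate, 3 rose and 4 fell, among the latter the sulfite oxidase Suox (−0.32 ± 0.10), Mpst (−0.22 ± 0.087) and the phosphatase Bpnt1 (−0.19 ± 0.078), which clears the spent donor. The 3 that rose, chosen after their values were seen, were the sulfate carrier Slc13a4 (1.10 ± 0.32), the PAPS synthase Papss1 (0.39 ± 0.089) and Ethe1 (0.27 ± 0.088). Of 17 genes for glutathione synthesis, recycling and breakdown, 4 rose and 5 fell. Glutathione reductase Gsr fell (−0.35 ± 0.081), as did the oxoprolinase Oplah (−0.78 ± 0.10) and the peptidase Anpep (−0.53 ± 0.079), while Gclc (−0.093 ± 0.14) and Gclm (−0.18 ± 0.083), the subunits of the rate-limiting ligase and chosen after their values were seen, did not pass. The 4 that rose, also chosen after their values were seen, were Chac1, which breaks glutathione down in the cytosol (1.94 ± 0.40), Ggt5 (1.02 ± 0.15), Ggct (0.94 ± 0.15) and the dipeptidase Cndp2 (0.46 ± 0.067).

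Related enzymes and later steps were counted in the same way. Of 13 tested microsomal GST and other GST-fold genes, 7 rose and none fell (53.8% called, beside 48.4% of all genes tested in either direction and 24.8% that rose), among them the chloride channel proteins Clic1 (0.85 ± 0.10) and Clic4 (0.17 ± 0.064) and the microsomal Mgst3 (0.44 ± 0.17). Alox5ap (0.86 ± 0.20) and Hpgds (1.70 ± 0.15), chosen after their values were seen, serve eicosanoid synthesis in leukocytes, whose markers also rose (macrophage marker sum 1558 to 2473 CPM on western diet against 650.3 to 1130.1 CPM on chow); the part of these cells in the result was not tested. Of 17 methyl-, acetyl- and amino acid-conjugating enzymes, 2 rose and 2 fell (23.5% called). The amino acid transferases Glyat (−0.28 ± 0.074) and Baat (−0.26 ± 0.061), the latter of bile acids, fell. Of 15 transporters, 5 rose and 5 fell (66.7% called). The canalicular exporter Abcc2 (−0.43 ± 0.11) and the basolateral exporter Abcc3 (−0.39 ± 0.15), both carriers of glucuronides, fell, as did Rdx, the radixin that anchors Abcc2 (−0.35 ± 0.083). The uptake carrier Slco1a1 fell most (−1.996 ± 0.24) and Abcc4 rose (0.93 ± 0.33), genes chosen after their values were seen.

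Of 27 tested regulators of these enzymes, 3 rose and 14 fell, beside 24.8% that rose and 23.6% that fell of all genes tested, with a median log2 difference of −0.22 against −0.0091 over all genes. Ppara (−0.58 ± 0.11), Rxra (−0.36 ± 0.063) and Hnf4a (−0.39 ± 0.076), nuclear receptors of the hepatocyte, fell. So did Nr1i3, which encodes CAR (−1.01 ± 0.11), and Nr1i2, which encodes PXR (−0.22 ± 0.062), while Nfe2l2, which encodes NRF2, rose (0.39 ± 0.089) and Ahr did not pass (0.077 ± 0.18); these 4 were chosen after their values were seen. Of 23 NRF2 targets outside the GST family, 9 rose and 7 fell (69.6% called, beside 48.4% of all genes tested). Ephx1, the epoxide hydrolase (−0.43 ± 0.12), and Entpd5 (−0.50 ± 0.12) fell, and Cbr3 (3.58 ± 0.61) and Nqo1 (1.05 ± 0.25) rose. The calls in these lists use the same test and threshold as those of the members.

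Lists by sex bias, clock and lobule position were read beside the members because many conjugating enzymes are known to vary with them. Of 23 tested male-biased liver genes outside the members, none rose and 15 fell (median −0.80, beside 23.6% falls over all genes tested), among them Mup3 (−0.53 ± 0.13), Serpina1e (−1.46 ± 0.31) and Cyp2d9 (−0.48 ± 0.11). Of 14 tested female-biased genes, 6 rose and 2 fell (median 0.51), beside 24.8% rises and 23.6% falls over all genes tested. Ntrk2 rose (3.68 ± 0.31) and Cyp4a14 fell (−1.44 ± 0.18). A further 11 female-biased genes had too few counts to be tested. Female-biased genes with few counts on chow could enter the test only through their western libraries, which favours rises in this list. Of 18 clock genes, none rose and 5 fell (27.8% called), including Tef (−0.76 ± 0.26), Hlf (−0.63 ± 0.11) and Rora (−0.46 ± 0.12). The clock gene Dbp ran from 8.25 to 203 CPM over the libraries. A clock covariate was the leading principal component of those 18 genes, with 57.4% of their variance. With it, 3 SULT rose and 2 fell, 5 GST rose and 5 fell, and 9 UGT fell. The component was taken over both diets and includes the 5 genes that fell, so it is not a measure of time of day alone. Of 19 pericentral genes 2 rose and 8 fell, and of 18 periportal genes 2 rose and 8 fell, the same counts in either zone. These are 52.6% and 55.6% called, beside 48.4% of all genes tested.

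Bile duct markers summed to 254 to 591 CPM on western diet and 118 to 229 CPM on chow, and stellate cell and fibroblast markers to 928 to 1647 and 634 to 832 CPM. The part of these cells in the rises of Gstm, Gsta1 and Gstp3 was not tested. Without western library 5 and chow library 2, the libraries with pancreatic transcripts, 8 UGT fell, 3 SULT rose and 2 fell, and 5 GST rose and 5 fell.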

How the data were processed

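Whole-liver RNA of 17 mice was sequenced. The labels' source name gives the western diet in every sample, so groups were taken from the treatment field, and replicate numbers follow label order. Per the labels' protocols, paired-end NovaSeq reads came from NEBNext Ultra libraries. Each deposited file holds the authors' expected counts by gene symbol for 1 library, in steps of 0.5 and without scaling. The tools were MultiQC, FastQC, HOMER and STAR 2.4.1c and the assembly mm10, per the submitters' processing notes. Not given in the sources used here are the counting options, the strand setting and how reads with several matches were treated, so near-identical copies and antisense or overlapping genes can share reads.

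Each file held 24940 genes, of which 3 had no value. Libraries of a diet differed by more than sampling noise in every pair (chi-square per degree of freedom of 3.77 to 37.8), and totals were 3604212 to 9071908.5 counts. Counts were rounded and filtered with filterByExpr, which left 13204 genes. Two-sided tests used edgeR 4.0.16 in R 4.3.3 (TMM, robust glmQLFit, glmQLFTest, diet alone as design), with Benjamini-Hochberg adjusted p over the whole table and a threshold of 0.05. Log2 differences were fitted with a prior count of 0.125, and dividing by the root of F gave the SE; the common dispersion was 0.0360. CPM used TMM-scaled library sizes. All 61 members matched the RefSeq gene table of GRCm38.p6, which gives no transcript lengths. No sequences were used here.

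Every member is named; values in most detail were given for up to 4 rises and 4 falls per family with an average log2 CPM of 1 or more, and for up to 3 genes per pathway list, of which 1 is not reported here. The members, the pathway and marker lists and the rule were chosen with earlier results of these data known. Alternatives were RLE factors, library size alone, DESeq2 1.42.0, limma-voom (limma 3.58.1), no low count filter, CPM of at least 1 in 8 libraries, no robust estimation, a threshold of 0.01, glmTreat against a 1.5-fold change, counts doubled, a clock covariate, leaving out the 2 libraries with pancreatic transcripts, and leaving out each library; the Ugt1a split, also run with the clock covariate, was added after seeing the data. On drawn counts of 13319 genes, edgeR called 47 of 49 genes raised by 1 and 21 of 50 raised by 0.5 on the log2 scale, 47 of 48 and 18 of 46 lowered as much, and 8 of 13126 unchanged genes.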

Additional observations from a re-analysis of the deposited data

Results flagged for a closer look

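Over the 46 tested members and both diets, 92 groups of libraries were searched for a single library far from the rest of its diet, and 20 held one. The rule was Dixon's ratio, the gap to the next library over the range of the diet, at the 95% level. It would mark about 1 in 20 groups by chance if the values were normally distributed. CPM were used without a log scale, so that rate need not hold here. The 8 Ugt1a rows count as little more than 1, since they share most of their counts.

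Western library 1 accounted for 13 of the 20 as the highest of its diet. It held Ugt1a1 at 1121, Ugt1a2 at 827, Ugt1a5 at 839, Ugt1a6a at 868, Ugt1a6b at 875, Ugt1a7c at 828.7, Ugt1a9 at 897 and Ugt1a10 at 828 CPM. In the same library Ugt2b34 stood at 776, Ugt2b35 at 567, Ugt2b36 at 709, Gsta3 at 812 and Gstm1 at 1230.2 CPM; the next western library held 629 CPM of Gsta3 and 786 CPM of Gstm1.

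The other 7 lay in several libraries of both diets. Ugt2a3 was high in western library 3, at 395 CPM against 244 CPM in the next. Ugt2b38 was high in western library 7, at 9.37 CPM, and in chow library 7, at 24.7 CPM. Sult1e1 was also highest of chow in library 7, at 2.58 CPM against 1.14 CPM in the next. Sult1d1 was low in western library 4, at 137 CPM against 202 CPM in the next lowest. Gstp3 was high in chow library 1, at 15.8 CPM, and Ugt3a1 in chow library 3, at 193 CPM.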

How the results depend on the processing

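Of the 25 members that passed, 22 kept their call in all 17 fits that left out 1 library; the exceptions were Ugt1a1, Ugt1a5 and Ugt2b34. Over those fits the number of falls ran from 7 to 17 in the UGT family (17 without western replicate 1, the highest value), from 2 to 2 in SULT and from 5 to 6 in GST, and of rises from 0 to 0, 3 to 3 and 5 to 5; over all genes 2816 to 3253 fell and 3066 to 3361 rose. With library size alone 8 GST rose in place of 5, and 1615 genes fell in place of 3122; 4485 rose, so that 73.5% of all calls were rises in place of 51.2%, and Ugt1a1, Ugt1a5 and Ugt2b34 lost their calls (adjusted p of 0.153, 0.240 and 0.198, edgeR). In the test against a 1.5-fold change, which asks for a larger difference, 2 UGT, 1 SULT and 1 GST fell, 3 SULT and 3 GST rose, so that 6 members rose and 4 fell, and over all genes 195 fell and 1108 rose. With a threshold of 0.01, 7 UGT and 4 GST fell and 4 GST rose. The other settings kept each family's count of rises and falls within 1.5 times: 8 to 12 UGT fell, and the SULT and GST counts did not change.

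The sign turned in 5 members that did not pass, all with log2 differences near 0. Gsta3 stood at 0.0028, Sult1a1 at 0.11 and Sult1b1 at 0.048 with library size alone. Gstt1 stood at −0.0048 with DESeq2, −0.0066 with limma-voom, −0.014 without a low count filter and −0.0025 with counts doubled. Sult1a1 stood at 0.0069 without the 2 libraries with pancreatic transcripts, and Sult1b1 at 0.16 with the clock covariate. Over the fits that left out 1 library, Gstt1 ran from −0.037 to 0.085, Sult1a1 from −0.11 to 0.032, Sult1b1 from −0.17 to 0.036 and Sult1d1 from −0.013 to 0.13. The cause of these changes was not tested. No paired analysis was possible because replicate numbers here are label order and tie no mouse to one on the other diet. Depth limits the 15 members that were not tested, with at most 5 counts in any library, and the folds of Sult1e1 and Gsta1, with few chow counts.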

Other observations

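Within chow, the excess of Ugt1a5 over the count common to the Ugt1a rows was lowest in libraries 7, 8 and 9, at 17.4, 11.4 and 19.5 CPM, and highest in library 1, at 74.1 CPM. The clock gene Dbp read 134, 148 and 203 CPM in libraries 7, 8 and 9, the 3 highest of all libraries, and 13.0 CPM in library 1. Other libraries did not follow that order: chow library 4 read 90.1 CPM of Dbp with an excess of 43.0 CPM, chow library 2 read 8.25 CPM with 42.2 CPM, and western library 4 read 10.7 CPM with 13.8 CPM. The Ugt1a9 excess was lowest of chow in the same 3 libraries, at 26.3, 26.2 and 37.2 CPM, and between 54.0 and 91.2 CPM in the other 6. With the clock covariate the log2 difference of the Ugt1a5 excess was −1.10 (adjusted p = 0.0188, edgeR's quasi-likelihood test) and that of the Ugt1a9 excess −0.58 (adjusted p = 0.180), against −1.05 and −0.44 without it. This was noticed in the data and is given as values alone.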
